A study of Mus musculus with 8 samples.

Results

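Hyaluronan is a long, unbranched sugar polymer of the extracellular matrix. It is made at the plasma membrane by hyaluronan synthases, which join 2 nucleotide sugars, UDP-glucuronic acid and UDP-N-acetylglucosamine, and extrude the growing chain. The chain is held in the matrix by large proteoglycans such as versican and by link proteins, is bound at the cell surface by receptors such as CD44, and is cut by hyaluronidases. Expression was examined here for 9 genes of this system, chosen by symbol from the 47706 genes of the count table. Each of the 9 symbols was found once: the synthases Has1, Has2 and Has3, the hyaluronidases Hyal1 and Hyal2, the receptor Cd44, the proteoglycan Vcan (versican), the link protein Hapln1, and Tnfaip6, which encodes TSG-6, a secreted protein that binds hyaluronan and transfers heavy chains onto it.

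RNA was sequenced from 8 mouse calvarial osteoblast cultures, primary cells digested out of the skullcaps of neonates, of which 4 were treated with parathyroid hormone (PTH) and 4 with vehicle. PTH acts in osteoblasts through a receptor that raises cAMP. The labels give 7 days of differentiation and 24 hours of treatment for all 8 samples, and name the differentiation as adipogenic, whereas the study's methods describe osteogenic medium, a short serum starvation before treatment and a micromolar dose of the amino-terminal PTH peptide. The prefix Con in the sample names is not explained there, and neither the labels nor the methods give the strain of these cells or say whether the 4 samples of a treatment came from separate isolations, so the p-values measure the spread between these samples, which may be technical. The median level of 8 osteoblast markers was between 301 and 537 CPM (counts scaled to a common library size) in each sample, and that of 6 adipocyte markers between 3.89 and 6.33 CPM. Of the 8 osteoblast markers, 2 were downregulated by PTH and 6 had an adjusted p of 0.05 or more, where 22.5% of all tested genes were downregulated. The 2 were the transcription factor genes Sp7 (103 ± 29.6 CPM with vehicle and 30.1 ± 3.26 CPM with PTH, log2 fold change -1.78, adjusted p = 4.45e-06) and Runx2 (-0.33, adjusted p = 0.00362). Of the 5 adipocyte markers tested, Pparg was downregulated (-1.503, adjusted p = 3.66e-07) and 4 had an adjusted p of 0.05 or more. Whether they bear on the hyaluronan genes was not tested. Total counts per sample lay between 33605610 and 56090654, the lowest in PTH replicate 2 and the highest in PTH replicate 1. These 2 samples lay at opposite ends of the second principal component (10.3% of the variance), while the first (62.8%) separated the treatments. As a check of the labels, Tnfsf11, which encodes RANKL, had between 0.987 and 1.79 CPM with vehicle and between 115 and 157 CPM with PTH, and Pth1r, the PTH receptor gene, was downregulated (log2 fold change -0.70, adjusted p = 4.43e-04).

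Of the 9 hyaluronan genes, 4 were upregulated by PTH (Has1, Has2, Tnfaip6 and Vcan), 2 were downregulated (Hyal1 and Hyal2) and 3 did not pass the test (Has3, Cd44 and Hapln1). Calls were made by edgeR's quasi-likelihood test at a Benjamini-Hochberg adjusted p under 0.05 over all 16736 genes tested, of which 45.8% were called (23.3% upregulated and 22.5% downregulated). The share of the 9 genes called can be read only against that background. By log2 fold change (log2FC, PTH against vehicle), Has1 (7.94), Has2 (3.97) and Tnfaip6 (3.54) ranked 11, 147 and 178 from the top of the 16736 genes. The median log2 fold change of the 9 genes was 0.46, against -0.00081 over all tested genes. The 9 genes were chosen with earlier results of these data known, so this difference is a description only. In 6 of the 9 genes the PTH and vehicle samples did not overlap in CPM, 4 with PTH higher and 2 with PTH lower. This was also the case in 43.0% of all tested genes (21.2% with PTH higher and 21.8% with PTH lower).

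**Figure D1:**
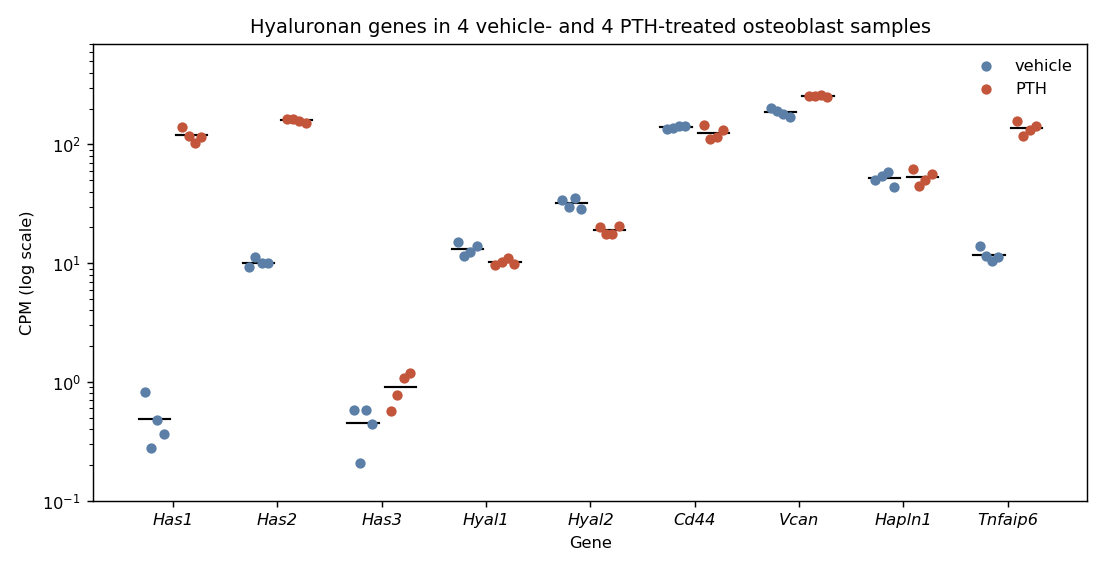
CPM on a log scale for each of the 9 hyaluronan genes (x axis) in the 4 vehicle-treated (blue) and 4 PTH-treated (red) samples, with a bar at each mean. Has1, Has2 and Tnfaip6 stand far above vehicle with PTH, Vcan lies above it, Hyal1 and Hyal2 lie below it, and the treatments overlap for Has3, Cd44 and Hapln1.

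Sequence before the transcription start was available from RefSeq on GRCm38.p6 for 7 of the 9 genes, all but Has2 and Has3, which were not searched. It is shown for the 2 of the 7 with the largest increases. Windows of 250 bases were searched on both strands for 5 motifs: TGACGTCA, the full cAMP response element, its 5-letter core TGACG, which the full element contains, TGANTCA of AP-1 factors, TTGCNNAA of C/EBP factors and TGTGGT of RUNX factors. Both stretches are printed 5′ to 3′ on the strand of the gene up to the most upstream annotated start, with the motif match in capitals.
Has1, chr17:17855206-17855438, minus strand: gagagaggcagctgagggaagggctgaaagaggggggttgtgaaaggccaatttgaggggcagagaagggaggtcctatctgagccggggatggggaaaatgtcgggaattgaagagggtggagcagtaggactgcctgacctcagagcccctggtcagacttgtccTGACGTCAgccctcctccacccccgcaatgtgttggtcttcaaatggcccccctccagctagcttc
Tnfaip6, chr2:52037863-52038008, plus strand: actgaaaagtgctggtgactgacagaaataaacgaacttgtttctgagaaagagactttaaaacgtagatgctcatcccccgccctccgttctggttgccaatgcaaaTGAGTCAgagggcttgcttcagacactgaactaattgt
The full element TGACGTCA was present before Has1 and in none of the other 6 members searched, and in 1.55% of all 32851 promoters of the table. Its first base lay 83 bases before the RefSeq start of Has1. The core TGACG was likewise found in Has1 alone among the 7, and in 17.8% of all promoters. Among the 7, TGANTCA was found in Tnfaip6 alone, beginning 142 bases before its RefSeq start, and in 6.75% of all promoters. Of the 7, Hyal1 and Hapln1 had TGTGGT (14.0% of all promoters), and none had TTGCNNAA (9.56%). Among genes of the other lists described below, Habp4 had the full element, and Uap1, Layn, Habp4, Adamts1 and Adamts9 had the core. TGANTCA was found in Gfpt2, Spam1 and Itih2, and TGTGGT in Uap1, Hexa and Stab2. TTGCNNAA was found in Ugp2, Gfpt2, Uap1, Layn, Hapln2, Itih2, Ptx3 and Habp2. How many of these listed genes had a sequence to search is not given here, so no share is stated for them. These matches describe letters in the window only, and binding was not measured here.

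Among the synthases, Has1 showed the largest change. Has1, on chromosome 17 from 17843323 to 17855205 (GENCODE M21 annotation of GRCm38, minus strand), was close to the lower limit of detection with vehicle, at 0.826, 0.276, 0.480 and 0.363 CPM in replicates 1 to 4, from 12 to 37 counts per sample. With PTH it stood at 141, 119, 103 and 115 CPM, from 3931 to 7217 counts. Every PTH-treated sample was thus far above every vehicle-treated sample. This gave a log2FC of 7.94 (SE 0.209, adjusted p = 3.97e-11), a 245-fold increase. With each sample left out in turn it lay between 7.75 and 8.30.

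Has2 encodes the synthase that is best known from mesenchymal cells and lies on chromosome 15 from 56665627 to 56694539 (minus strand). It was already expressed with vehicle, at 9.26, 11.2, 9.95 and 10.1 CPM, and reached 164, 163, 159 and 151 CPM with PTH. The 4 PTH-treated samples were close together and far from the vehicle-treated ones. Its log2FC was 3.97 (SE 0.0757, adjusted p = 5.44e-12), a 15.7-fold increase. The antisense gene Has2os, named here because its exons overlap those of Has2 by 182 bases (4.30% of the Has2 exons), did not pass the test, at 1.25 ± 0.104 CPM with vehicle and 1.06 ± 0.237 CPM with PTH (means ± SD, n = 4, adjusted p = 0.510). The strand setting of the authors' counting is not given in the sources used here.

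Has3, on chromosome 8 from 106870242 to 106884566, remained scarce in both treatments. It had 0.580, 0.207, 0.584 and 0.443 CPM with vehicle and 0.566, 0.782, 1.07 and 1.19 CPM with PTH, from 9 to 50 counts per sample. The lowest PTH-treated sample lay within the range of the vehicle-treated samples. edgeR put the log2FC at 0.98 (SE 0.410, 95% interval 0.09 to 1.87, adjusted p = 0.0698). The interval is not adjusted for the number of genes tested, so it can lie above no change while the adjusted p does not pass. Without PTH replicate 1, Has3 passed the test (log2FC 1.15, adjusted p = 0.0431), and across the alternatives its adjusted p ranged between 0.0431 and 0.182. Has3 shares 352 bases of exon with Chtf8 on the opposite strand, a gene at 105 ± 1.13 CPM with vehicle that was downregulated by PTH (log2FC -0.56, adjusted p = 7.79e-05). How reads in the shared stretch were assigned was not tested.

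The makeup of the synthase transcripts differed between the treatments. To compare levels between genes, CPM was divided by the length of the gene's annotated exons in kilobases. Scaled this way, the 3 synthases together had between 2.46 and 2.73 CPM per kilobase with vehicle and between 60.3 and 69.8 with PTH. Has2 made up 88.9%, 96.6%, 92.2% and 94.1% of that level in vehicle replicates 1 to 4, and Has1 between 2.23% and 7.43%. With PTH, the share of Has1 was 44.6%, 40.4%, 37.7% and 41.6%, and that of Has2 between 55.3% and 62.1%. Has3 made up 2.81% ± 1.16 (SD, n = 4) with vehicle and 0.224% ± 0.0813 with PTH. Has1 thus went from a minor component to a level similar in size to that of Has2. Which of the 2 was more abundant with PTH depended on the length used. The annotation of Has1 holds a transcript with a retained intron. Scaled to the longest protein-coding transcript, an alternative chosen after the data were seen, Has1 made up 60.0% ± 2.85 with PTH and 8.64% ± 4.35 with vehicle. These shares are a description and were not tested.

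**Figure D2:**
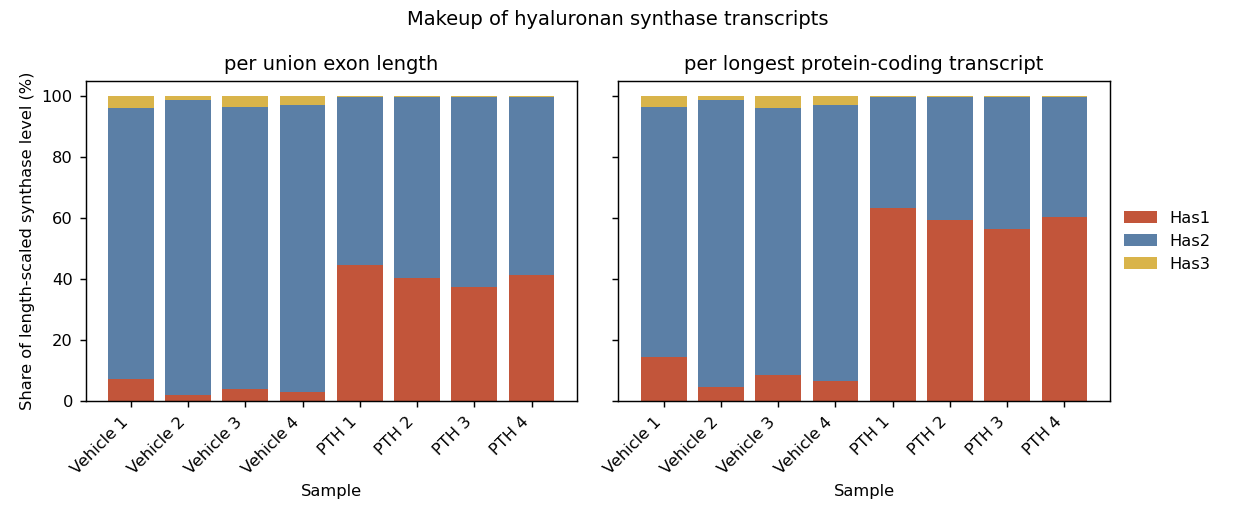
Stacked bars give the share (%, y axis) of Has1, Has2 and Has3 in the length-scaled synthase level of each of the 8 samples (x axis), with CPM divided by union exon length (left) or by the longest protein-coding transcript (right). Has2 fills most of each vehicle bar, and Has1 takes 37.7% to 44.6% of each PTH bar on the left and 56.6% to 63.5% on the right.

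Tnfaip6, on chromosome 2 from 52038009 to 52056686, is an inflammation-induced gene whose product remodels hyaluronan-rich matrix, as in the expanding ovarian follicle. It had 14.0, 11.5, 10.4 and 11.3 CPM with vehicle and 157, 118, 132 and 142 CPM with PTH. The lowest PTH-treated sample was thus far above the highest vehicle-treated sample. The change amounted to a log2FC of 3.54 (SE 0.115, adjusted p = 2.42e-10), an 11.6-fold increase that lay between 3.47 and 3.63 on the log2 scale with each sample left out. Per kilobase, Tnfaip6 had the highest level of the 9 genes with PTH, at 80.2 ± 9.71 CPM per kilobase against 6.90 ± 0.912 with vehicle.

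The hyaluronidases changed the other way and by far less. HYAL2 is anchored at the cell surface and cuts long chains into fragments, which HYAL1 degrades further in lysosomes. Hyal2, on chromosome 9 from 107567945 to 107572779, had 34.1, 29.9, 35.2 and 28.4 CPM with vehicle and 19.996, 17.6, 17.6 and 20.7 CPM with PTH. All 4 PTH-treated samples were lower than all vehicle-treated samples. The estimated log2FC was -0.75 (SE 0.0933, adjusted p = 4.30e-05). Hyal1, which starts 4147 bases after the end of Hyal2 on the same strand, had 15.04, 11.5, 12.4 and 13.8 CPM with vehicle and 9.62, 10.3, 11.1 and 9.77 CPM with PTH. These values did not overlap either, but the gap was small, from 11.1 to 11.5 CPM. This gave a log2FC of -0.37 (SE 0.105, adjusted p = 0.0117), and it stayed between -0.44 and -0.31 with each sample left out. The value of Hyal1 is uncertain because the authors' assembly places it in 1 locus with Hyal3 and Naa80 (listed under its older symbol Nat6), and 50.8% of the annotated Hyal1 exon sequence is shared with Naa80 on the same strand. Naa80 was downregulated too (20.3 ± 2.33 CPM with vehicle and 10.7 ± 2.54 CPM with PTH, log2FC -0.93, adjusted p = 3.54e-04), and its part in the Hyal1 value was not tested. Per kilobase, the 3 synthases together stood at between 0.172 and 0.225 times the level of Hyal1 and Hyal2 together with vehicle, and at between 6.92 and 8.10 times that level with PTH. This ratio leaves out other hyaluronan-degrading genes described below. Of these, Cemip stood at 34.7 ± 2.51 CPM per kilobase with vehicle and 23.0 ± 1.70 with PTH. Cemip2 stood at 13.6 ± 1.61 with vehicle and 13.5 ± 2.29 with PTH.

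Of the genes that hold hyaluronan at the cell or in the matrix, 1 of 3 was called, against 45.8% of all tested genes. Vcan encodes versican, a large chondroitin sulfate proteoglycan that binds hyaluronan at one end, and it lies on chromosome 13 from 89655312 to 89742509. It had 202, 191, 181 and 171 CPM with vehicle and 257, 256, 262 and 251 CPM with PTH, so that the treatments did not overlap and the PTH-treated samples were closely grouped. Its log2FC was 0.46 (SE 0.0664, adjusted p = 1.35e-04), between 0.42 and 0.50 with each sample left out. Hapln1, whose product locks hyaluronan to proteoglycans, lies on the opposite strand 43659 bases from Vcan. It had 50.4, 54.3, 59.0 and 43.5 CPM with vehicle and 62.5, 44.5, 50.2 and 56.7 CPM with PTH, and the treatments overlapped over most of their ranges. Its log2FC was 0.05 (95% interval -0.20 to 0.30, adjusted p = 0.765), an interval that spans changes of either sign. The ratio of Vcan to Hapln1 per kilobase lay between 1.25 and 1.64 with vehicle and between 1.68 and 2.34 with PTH.

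Cd44, the main cell-surface receptor for hyaluronan, lies on chromosome 2 from 102811141 to 102901665. It was abundant in both treatments, at 135, 138, 143 and 142 CPM with vehicle and 145, 111, 115 and 132 CPM with PTH. The vehicle-treated samples were tightly grouped and the PTH-treated samples spread around and below them, with replicate 1 the highest of all 8. edgeR put the log2FC at -0.15 (95% interval -0.33 to 0.03, adjusted p = 0.172). Without PTH replicate 1, Cd44 passed the test as downregulated (log2FC -0.23, adjusted p = 0.0210), and across the alternatives its adjusted p ranged between 0.0210 and 0.445. PTH replicate 1 also had the highest PTH values of Has1, Has2, Hapln1 and Tnfaip6. Cd44 is expressed by many cell types, and in bulk samples fewer cells of a type and less RNA per cell cannot be told apart. All 10 macrophage markers listed were detected, summing to between 1041 and 1694 CPM with vehicle and between 1627 and 2095 CPM with PTH. Lyz2 was the largest part of these sums, at 914 ± 187 CPM with vehicle and 1417 ± 203 CPM with PTH. Of the 10, 2 (Lyz2 and Tyrobp) were upregulated and 8 did not pass the test, where 23.3% of all tested genes were upregulated. The log2FC of all 10 was positive, from 0.19 (Csf1r) to 0.86 (Tyrobp), with a median of 0.31 against -0.00081 over all tested genes. The part of macrophages in the value of Cd44 was not tested.

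The order of the 9 genes by length-scaled level differed between the treatments. With vehicle, Cd44 was highest at 20.6 ± 0.511 CPM per kilobase, followed by Vcan (12.9 ± 0.922), Hyal2 (9.68 ± 0.993), Hapln1 (8.78 ± 1.11), Tnfaip6 (6.90 ± 0.912), Hyal1 (3.50 ± 0.408), Has2 (2.39 ± 0.188), Has1 (0.108 ± 0.0534) and Has3 (0.0711 ± 0.0278). Hyal2 and Hapln1, Hapln1 and Tnfaip6, and Has1 and Has3 overlapped between samples and were not distinct in that order. With PTH, Tnfaip6 was highest, followed by Has2 (37.6 ± 1.34), Has1 (26.4 ± 3.51), Cd44 (18.6 ± 2.33), Vcan (17.7 ± 0.292), Hapln1 (9.06 ± 1.32), Hyal2 (5.76 ± 0.494), Hyal1 (2.70 ± 0.177) and Has3 (0.141 ± 0.0441). Here Cd44 and Vcan overlapped. The order of Has2 and Has1 depended on the length used, as Has1 was above Has2 when scaled to the longest protein-coding transcript. Both synthases that rose were thus below Hyal1 and Hyal2 with vehicle and above them with PTH.

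**Figure D3:**
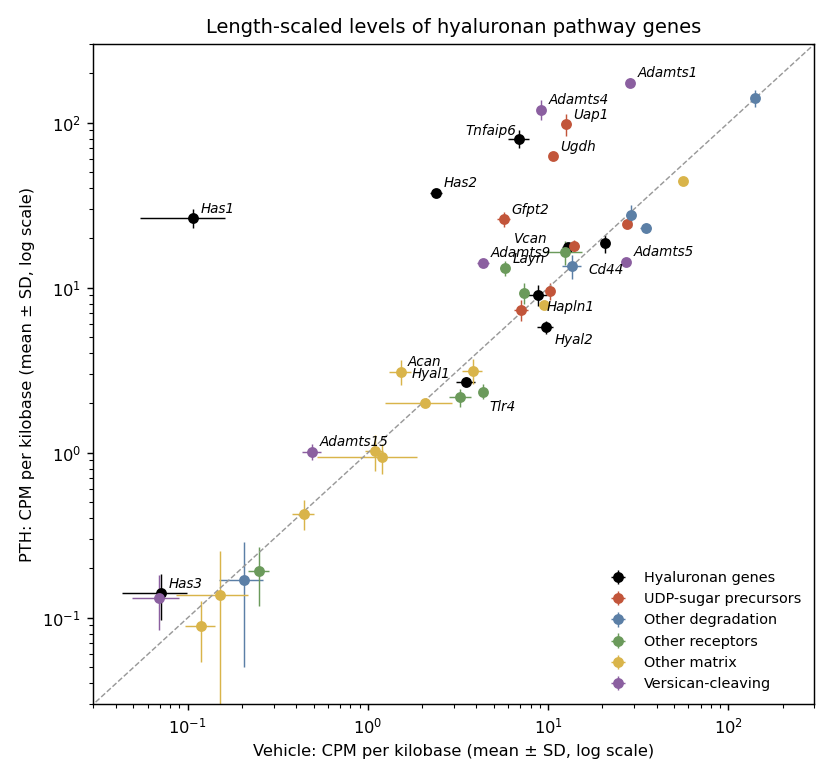
Mean CPM per kilobase of exon with vehicle (x axis) and with PTH (y axis), both on log scales, for tested hyaluronan pathway genes, with SD over 4 samples as error bars and equal levels on the dashed line. The 9 hyaluronan genes (black) and the genes with large changes are named. Has1, Has2 and Tnfaip6 lie far above the line, as do the precursor enzymes Uap1, Ugdh and Gfpt2, while Hyal2 lies below it.

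The response was further described with 5 lists of other genes of hyaluronan biology, 45 genes in all. Their counts are to be read against all tested genes, of which 23.3% were upregulated and 22.5% downregulated. Enzymes that make the UDP sugars consumed by the synthases were upregulated in 4 of 7 cases and downregulated in none (all tested genes, 23.3% and 22.5%), with a median log2FC of 0.37. Uap1, which forms UDP-N-acetylglucosamine in the last step of its route, had the largest increase of this list. Its vehicle samples held 46.0 to 53.6 CPM and its PTH samples 337 to 468 CPM (log2FC 2.97, SE 0.106, adjusted p = 5.23e-10). The other 3, named after their values were seen, were Ugdh, Gfpt2 and Gfpt1. Ugdh, the enzyme that oxidizes UDP-glucose to UDP-glucuronic acid, rose from 72.2 ± 3.85 to 423 ± 12.6 CPM (log2FC 2.55, adjusted p = 3.97e-11). Gfpt2 and Gfpt1 encode the 2 forms of the enzyme that commits fructose-6-phosphate to the hexosamine route. Gfpt2 rose from 31.7 ± 2.59 to 145 ± 15.5 CPM (log2FC 2.20, adjusted p = 1.88e-09), whereas the log2FC of Gfpt1 was 0.37 (adjusted p = 0.00172). Ugp2, Gnpnat1 and Pgm3, the remaining enzymes of the 2 routes, did not pass the test, with log2FC values of -0.16, 0.05 and -0.09. Without PTH replicate 1, Ugp2 (-0.19, adjusted p = 0.0288) and Pgm3 (-0.18, adjusted p = 0.0473) were called as downregulated, and Ugp2 also with no filter on low counts (-0.20, adjusted p = 0.04999). Across the alternatives, adjusted p ranged between 0.0288 and 0.159 for Ugp2 and between 0.0473 and 0.790 for Pgm3. The 3 precursor genes with a log2FC above 2, a limit not set beforehand, included at least 1 enzyme of each of the 2 sugar routes. This is a description only.

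Among the other enzymes that break hyaluronan down, 0 of 6 tested genes were upregulated and 1 was downregulated by edgeR, and 1 had an unadjusted p under 0.05. Of all tested genes, 22.5% were downregulated. The downregulated gene was Cemip, which encodes a secreted hyaluronan-depolymerizing protein, with 463, 430, 416 and 389 CPM with vehicle and 276, 264, 275 and 312 CPM with PTH. Its values did not overlap between treatments, and the log2FC was -0.59 (SE 0.0776, adjusted p = 6.46e-05). The cell-surface hyaluronidase gene Cemip2 (listed as Tmem2) and the lysosomal enzyme genes Hexa and Gusb did not pass the test, with adjusted p values of 0.986, 0.993 and 0.625. For Hyal3, the highest count of a sample was 23. The remaining 4, Hyal4, Hyal5, Hyal6 and the sperm hyaluronidase gene Spam1, were listed at 0 in all 8 samples.

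Of the other receptors for hyaluronan or its fragments, 2 of 6 tested genes were upregulated and 2 were downregulated, where 45.8% of all tested genes were called in either direction. Layn, which encodes the membrane receptor layilin, rose from 13.9 ± 0.781 to 31.6 ± 3.31 CPM (log2FC 1.19, adjusted p = 5.16e-07). Tlr4, an innate immune receptor, fell from 24.0 ± 1.11 to 13.1 ± 1.36 CPM (log2FC -0.88, adjusted p = 8.31e-06). The other 2, named after their values were seen, were Tlr2 (log2FC 0.34, adjusted p = 0.0171) and Hmmr, a receptor gene that is also expressed in dividing cells (-0.59, adjusted p = 0.00204). The call of Tlr2 was lost with no filter on low counts (adjusted p = 0.0636), without PTH replicate 4 (0.0620), without vehicle replicate 2 (0.0659) and without vehicle replicate 3 (0.0531), and its adjusted p lay between 0.0104 and 0.0659 over all alternatives. Stab1, a scavenger receptor gene of macrophages and vessels, did not pass (log2FC 0.41, adjusted p = 0.0524). With all samples, it was called as upregulated by DESeq2 (0.40, adjusted p = 0.0226), by edgeR with DESeq2 size factors (adjusted p = 0.0488) and with counts halved (adjusted p = 0.0442). The same call was made without vehicle replicate 4 (0.55, adjusted p = 0.00944) and without PTH replicate 1 (0.48, adjusted p = 0.0234), within a range of 0.00944 to 0.145 over all alternatives. The sums of macrophage markers given beside Cd44, of which Lyz2 was the largest part, apply to these genes as well.

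In a list of other hyaluronan-binding proteins, mainly of the matrix (the matrix list), 10 of 15 genes were tested. Of these, 1 was upregulated and 2 were downregulated, so that 3 of 10 were called against 45.8% of all tested genes. The upregulated gene was Acan (aggrecan), a versican relative best known from cartilage, which rose from 11.4 ± 1.63 to 23.2 ± 3.998 CPM (log2FC 1.03, adjusted p = 6.45e-05). Of 7 cartilage markers, of which Acan is one, 6 were tested. Of these, 2 (Acan and Col2a1) were upregulated and 4 did not pass, where 23.3% of all tested genes were upregulated. The cartilage list summed to between 813 and 1076 CPM with vehicle and between 876 and 1132 CPM with PTH. Its part in the Acan value was not tested. Ptx3, which encodes a pentraxin that binds TSG-6, fell from 150 ± 8.03 to 119 ± 6.93 CPM (log2FC -0.33, adjusted p = 0.00158). Habp4, whose product is intracellular and not a matrix protein, had a log2FC of -0.27 (adjusted p = 0.00472). The heavy-chain family genes Itih2, Itih3, Itih4 and Itih5 did not pass the test. Counts were low for Itih3 (6 to 25 per sample) and Itih4 (6 to 57), and Itih1 and Ambp were not tested. Itih5 stood at 30.1 ± 3.70 CPM (vehicle) and 24.9 ± 4.23 CPM (PTH). It was called as downregulated without PTH replicate 1 (log2FC -0.40, adjusted p = 0.00843) or without vehicle replicate 4 (-0.35, adjusted p = 0.0432). Across the alternatives its adjusted p ranged between 0.00843 and 0.238.

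Proteases that cleave versican had a median log2FC of 1.38, with 4 of 6 genes upregulated and 1 downregulated (all tested genes, 23.3% and 22.5%). Adamts4 rose from 43.9 ± 2.02 to 577 ± 79.2 CPM (log2FC 3.72, SE 0.103, adjusted p = 6.20e-11). Adamts5 moved the other way, from 293, 292, 297 and 287 CPM with vehicle to 160, 146, 151 and 164 CPM with PTH (log2FC -0.91, SE 0.0619, adjusted p = 1.87e-07). The other upregulated genes, named after their values were seen, were Adamts1 (log2FC 2.62), Adamts9 (1.70) and Adamts15 (1.05). Adamts1 rose from 151 ± 4.94 to 929 ± 54.1 CPM. Adamts20, with 63 counts or fewer per sample, did not pass (log2FC 0.93, adjusted p = 0.0623). It was called as upregulated without PTH replicate 3 (1.15, adjusted p = 0.0192) or without vehicle replicate 4 (1.13, adjusted p = 0.0468), and with counts halved (0.89, adjusted p = 0.0497), with an adjusted p between 0.0192 and 0.151 over all alternatives. In these samples the proteoglycan gene Vcan and 4 of the 6 protease genes were therefore higher with PTH, and the protease genes by more on the log2 scale.

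**Figure D4:**
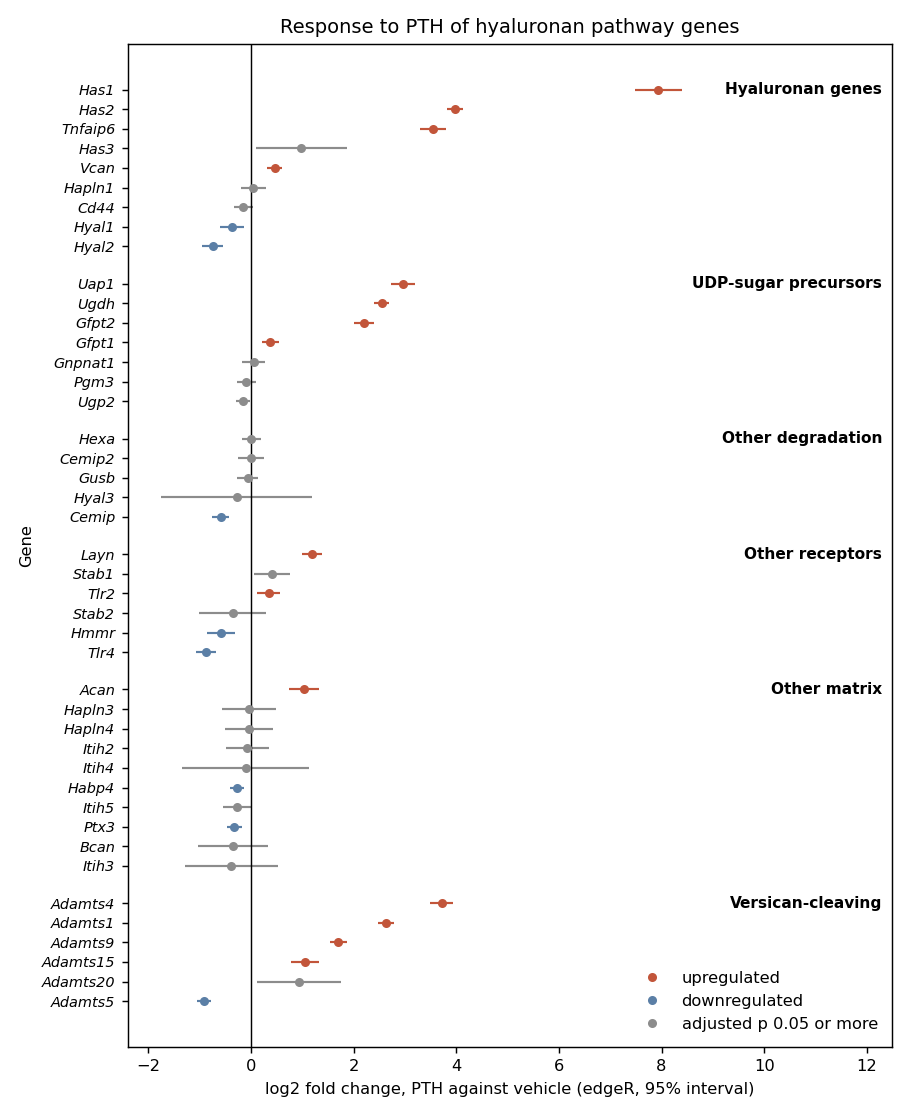
Log2 fold changes of PTH against vehicle (x axis, edgeR, with 95% intervals) for tested genes of the 6 lists (y axis), in red where upregulated, blue where downregulated and grey where the adjusted p was 0.05 or more. Has1 stands at 7.94, followed by Has2, Adamts4, Tnfaip6, Uap1, Adamts1, Ugdh and Gfpt2, all above 2.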

How the data were processed

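RNA of 4 PTH-treated and 4 vehicle-treated mouse calvarial osteoblast cultures was sequenced. The submitters' processing notes name HISAT2, StringTie, DESeq2 and mm10. The deposited table holds whole-number gene counts that the authors derived from StringTie coverage, in which an assumed read length scales every count; that length and the strand setting are not given in the sources used here. Total counts lay between 33605610 and 56090654. Here, genes were filtered (filterByExpr, minimum count 10, minimum total 15), scaled by TMM and tested with edgeR 4.0.16 (quasi-likelihood, PTH against vehicle, Benjamini-Hochberg over 16736 genes, threshold 0.05) in R 4.3.3; the code was tested on simulated data. Lengths came from GENCODE M21. Alternatives were DESeq2 1.42.0, its size factors, no filter, a replicate block, halved counts, counts summed by symbol, other transcript lengths and leaving out each sample. The members and gene lists were chosen with earlier results of these data known. Named genes were the 9 members, the called gene with the largest rise and fall of each list, every called gene of lists with at most 3, Tnfsf11, Pth1r, and the 3 genes most correlated with Has2; others are marked as named after their values were seen. The values of 1 tested gene of the degradation list, included in that list's counts, are not reported here.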

Additional observations from a re-analysis of the deposited data

Results flagged for a closer look

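In 3 of 88 groups of 4 samples, namely the vehicle-treated and the PTH-treated samples of each tested gene of the 9 hyaluronan genes and the 5 other lists, 1 sample stood apart by Dixon's test at the 95% level, where chance gives about 1 in 20. All 3 were genes of the matrix list. Hapln4, a link protein gene, had 13.1 CPM in vehicle replicate 4, against 6.20 to 6.86 CPM in the other vehicle-treated samples (the gap was 0.904 of the range). Bcan, which encodes the proteoglycan brevican, had 8.89 CPM in the same sample, against 3.13 to 4.04 CPM in the others (0.842). Habp4, an intracellular hyaluronan-binding protein gene, had 38.5 CPM in PTH replicate 2, against 42.7 to 43.4 CPM in the other PTH-treated samples (0.849).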

How the results depend on the processing

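No log2 fold change of Has1, Has2, Tnfaip6, Vcan, Hyal1 or Hyal2 changed its call or direction under any of the 14 alternatives. When single samples were dropped, log2 fold changes ran from 0.74 to 1.15 for Has3, from -0.226 to -0.081 for Cd44 and from -0.0393 to 0.136 for Hapln1, which was -0.0393 without PTH replicate 1 and -0.0298 without vehicle replicate 4. The precursor list then held between 0 and 2 downregulated genes, with 2 without PTH replicate 1, and the receptor list between 1 and 3 upregulated genes, with 1 without PTH replicate 4, vehicle replicate 2 or vehicle replicate 3. With no filter on low counts, 1 precursor gene was downregulated and 1 receptor gene upregulated. With the longest transcript as length, Has1 made up 47.0% and Has2 52.7% of the synthase level with PTH. With the longest protein-coding transcript, added after the data were seen, Has1 made up 8.64% with vehicle and 60.0% with PTH, and Has2 88.5% and 39.8%. The cause of the changes with a left-out sample was not tested. Same-numbered samples did not deviate together (correlations between -0.041 and 0.027, and 1 of 8 samples correlated best with its own number), so no pairing by number was seen. This check cannot show whether same-numbered samples shared an isolation. With the replicate block, 3571 genes were upregulated and 3432 downregulated, the log2 fold changes of Has1 and Has2 were 7.95 and 3.98, and no call of the 9 genes changed. Counts of 9 to 50 per sample limit what can be said of Has3.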

Other observations

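The tested genes whose log2 CPM over the 8 samples was most like that of Has2 were Pop4 (Pearson r = 0.9997), Ptp4a1 (0.999) and C2cd4b (0.999), with log2 fold changes of 2.02, 2.89 and 12.6. The 8 samples share 2 treatments, so a gene with any large and even change scores high, and 354 genes had r above 0.99.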
